A study of Rattus norvegicus with 6 samples.

Results

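The genes examined here are 10 regulators of the G1 phase of the cell cycle in cortical neural progenitors of the rat. They are the cyclin genes *Ccnd1*, *Ccnd2*, *Ccnd3* and *Ccne1*, the kinase genes *Cdk2*, *Cdk4* and *Cdk6*, and the inhibitor genes *Cdkn1a*, *Cdkn1b* and *Cdkn1c*. They were chosen by name as known G1 regulators, and all 10 were found among the 17337 gene names of the RNA-seq tables, each at 1 locus. Progenitors were isolated from the cortex of Sprague Dawley rats at embryonic day 14, grown with bFGF and EGF at 20 ng/ml each, and collected after passage 2. No treatment or genotype was compared. PolyA-selected RNA of 2 biological replicates, A and B, was sequenced as 2 technical libraries each (A1, A2, B1 and B2), while the 2 Start-seq samples of the study were not used here.

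The cell cycle engine of G1 works in steps. Mitogens such as EGF and bFGF induce D-type cyclins, which bind CDK4 and CDK6 and start to phosphorylate the retinoblastoma protein. Freed E2F factors then drive transcription of E-type cyclins, which activate CDK2 and push the cell into S phase. The Cip/Kip proteins p21 (*Cdkn1a*), p27 (*Cdkn1b*) and p57 (*Cdkn1c*) restrain cyclin-CDK2 complexes and also help to assemble cyclin D with its kinase. In the developing cortex the length of G1 is tied to the choice between another division and differentiation, and p27 and p57 are known for their part in cell cycle exit.

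The mRNA level is given as FPKM, which corrects fragment numbers for transcript length and library size, so that levels of different genes can be set beside each other. B2 was the shallowest library, with a coverage of 6.83 reads per base at 1 FPKM against 22.7 to 24.4 in the others. Of 6 neural progenitor markers, *Fabp7* was at 11841 ± 8256, *Vim* at 3291 ± 374, *Sox2* at 478 ± 137 and *Hes5* at 289 ± 154 FPKM (SD, n = 2). *Nes* and *Pax6* were lower, at 39.1 ± 3.88 and 33.9 ± 6.01 FPKM (SD, n = 2). The 6 progenitor markers that were measured summed to between 20711 and 22794 FPKM in the libraries of A and between 9825 and 10555 FPKM in those of B. Most of this sum was *Fabp7*, at 16800 and 18557 FPKM in A1 and A2 and 6520 and 5485 FPKM in B1 and B2. *Sox2* and *Hes5* were also lower in B without overlap, while *Nes*, *Pax6* and *Vim* overlapped, and *Nes* and *Vim* were higher in B by the mean. The higher mean of *Nes* and *Vim* rested on B2, at 55.4 and 4458 FPKM. In B1 they had 28.2 and 2652 FPKM, below both libraries of A. All 7 genes of a list of mesenchymal and meningeal markers were higher in both libraries of B than in either of A, beside 28.1% of all genes, and their sum ranged from 621 to 642 FPKM in A and from 2430 to 2928 FPKM in B. The 4 endothelial markers summed to at most 2.13 FPKM and the 4 microglial markers to at most 1.34 FPKM in any library. In bulk RNA fewer cells of a type cannot be told apart from less RNA per cell.

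Promoter sequences show how the regulatory DNA of these genes differs, and 3 are printed. *Cdk4* had the highest level of the 10 genes, *Ccnd3* was the gene with a promoter in the table whose level differed most between the replicates, and *Cdk2* was the one with the smallest spread. RefSeq promoters of build GRCr8 were matched by symbol for 6 of the 10 genes, *Ccnd3*, *Ccne1*, *Cdk2*, *Cdk4*, *Cdkn1a* and *Cdkn1b*. The 250 bases before the annotated start are given 5′ to 3′ on the gene's strand. Capitals mark matches on either strand to the letters searched, which were CACGTG (the E-box of Myc and Max), CCAAT (the box of NF-Y), GGGCGG (the GC box of Sp1), TATAAA (the TATA box), TGACGT (the core of the cAMP response element) and, as E2F elements, TTTCGCGC, TTTGGCGC, TTTCCCGC and TTTGCCGC.
Cdk4, chr7:64771203-64771452, plus strand: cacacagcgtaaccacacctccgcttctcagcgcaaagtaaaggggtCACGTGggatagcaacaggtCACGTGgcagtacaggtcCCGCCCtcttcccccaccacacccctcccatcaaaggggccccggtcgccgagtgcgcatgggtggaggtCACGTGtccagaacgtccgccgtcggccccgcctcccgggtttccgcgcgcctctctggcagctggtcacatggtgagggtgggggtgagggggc
Ccnd3, chr9:20897876-20898125, minus strand: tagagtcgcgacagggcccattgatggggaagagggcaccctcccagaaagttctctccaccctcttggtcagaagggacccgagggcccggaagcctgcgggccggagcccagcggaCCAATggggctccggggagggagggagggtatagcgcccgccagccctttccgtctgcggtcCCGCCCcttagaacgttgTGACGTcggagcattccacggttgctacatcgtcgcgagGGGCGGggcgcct
Cdk2, chr7:1721879-1722128, minus strand: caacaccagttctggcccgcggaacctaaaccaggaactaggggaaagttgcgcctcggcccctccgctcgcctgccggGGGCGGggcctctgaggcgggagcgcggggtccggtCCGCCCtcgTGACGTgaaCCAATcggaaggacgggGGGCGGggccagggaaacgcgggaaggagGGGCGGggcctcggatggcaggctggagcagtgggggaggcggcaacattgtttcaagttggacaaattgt

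The *Cdk4* promoter held 3 E-boxes, which began 203, 183 and 95 bases before the start. Among all 33469 promoters of the table, 5.59% held at least 1 such E-box and 17 held 3 or more. *Cdk4* was the only one of the 6 genes with this match. The *Cdk2* promoter held 4 GC boxes. Among the 33469 promoters 1227 held 4 or more, and 30.5% of all promoters held at least 1. It shared with *Ccnd3* a CCAAT box (34.0% of all promoters) and a TGACGT core (6.95%). *Ccne1* held 3 GC boxes, and *Cdkn1b* held 1 GC box and 2 CCAAT boxes. No TATA box (12.9% of all promoters) and no E2F element of these letters (1.73%) was matched in any of the 6 windows, and *Cdkn1a* held none of the letters searched. The GC content was 58.8% for *Cdkn1a* and between 64.0% and 72.8% for the other 5, beside a median of 51.2% over all promoters. These matches describe letters within 1 window per gene and were not tested for binding. Other starts of these 6 genes, where they exist, are not described.

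The level of the 10 genes spanned 223-fold, from *Cdk4* down to *Cdk6*. The order by mean level was *Cdk4*, *Cdkn1c*, *Cdkn1b*, *Cdkn1a*, *Ccnd3*, *Ccnd2*, *Cdk2*, *Ccnd1*, *Ccne1* and *Cdk6*. *Cdk4*, *Cdkn1c* and *Cdkn1b* held places 1, 2 and 3 and *Cdk6* place 10 in each of the 4 libraries. In this order the replicate values of *Cdkn1a* overlapped those of *Ccnd3*, and likewise *Ccnd3* with *Ccnd2*, *Ccnd2* with *Cdk2*, *Cdk2* with *Ccnd1*, and *Ccnd1* with *Ccne1*, so these neighbours did not differ beyond the spread between replicates. Within a library the order could still hold, and *Ccnd3* was above *Ccnd2* in 4 of 4 libraries. The other 4 neighbouring pairs were apart in both replicates. The median over the 10 genes was 34.0 FPKM, beside 16.6 FPKM for the 10481 gene names whose mean reached 1 FPKM, and 7 of the 10 genes lay above the latter value.

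**Figure D1:**
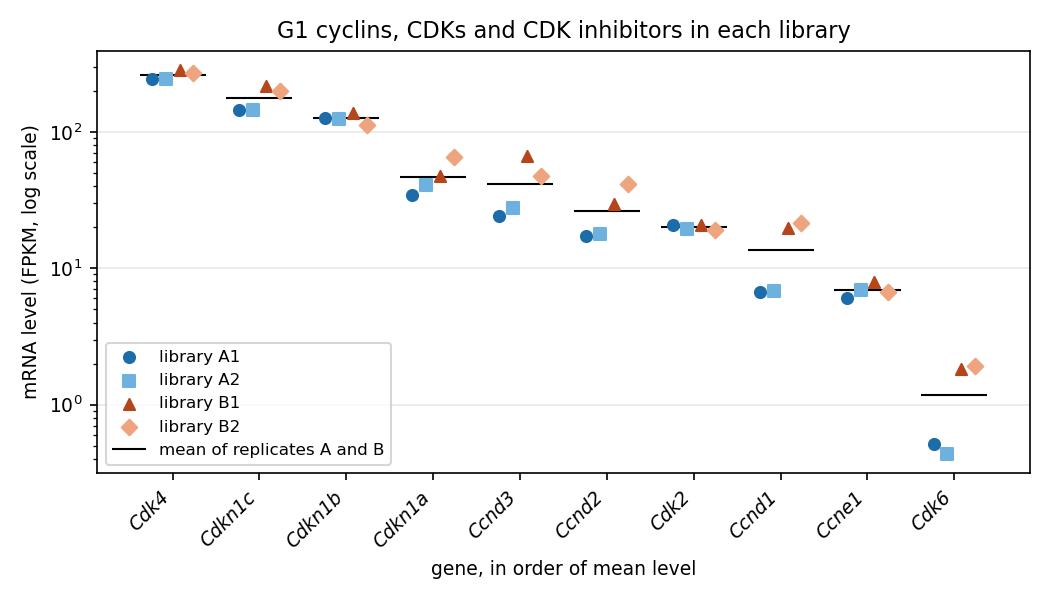
mRNA level (FPKM, log axis) of each of the 10 genes in libraries A1, A2, B1 and B2, with a bar at the mean of replicates A and B. *Cdk4* lies highest and *Cdk6* lowest in every library. Both points of B lie above both of A for 7 of the 10 genes, all but *Ccne1*, *Cdk2* and *Cdkn1b*. The same held for 28.1% of the 10481 genes whose mean reached 1 FPKM.

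The D-type cyclins were the genes that differed most between the replicates, together with their partner *Cdk6*. *Ccnd1*, the cyclin D1 gene and a classic mitogen target, is annotated at chr1:218090750-218100272 of rn6, minus strand. Its level was 6.64 and 6.84 FPKM in libraries A1 and A2, against 19.8 and 21.3 FPKM in B1 and B2. Both libraries of B were far above both of A, and the technical pairs were within a factor of 1.07 of each other. The mean was 13.7 ± 9.77 FPKM (SD, n = 2), and replicate B was 3.05 times as high as replicate A.

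*Ccnd2*, which encodes cyclin D2, is annotated at chr4:159674885-159697207, minus strand. It had 17.3 and 17.8 FPKM in libraries A1 and A2, against 29.6 and 41.2 FPKM in B1 and B2. The libraries of A and B did not overlap, but the 2 libraries of B were 1.39-fold apart. Its mean was 26.5 ± 12.6 FPKM (SD, n = 2), and the ratio of B to A was 2.01.

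*Ccnd3*, which encodes cyclin D3, is annotated at chr9:15404865-15410895, minus strand. Its level was 24.3 and 27.8 FPKM in libraries A1 and A2, against 66.6 and 47.5 FPKM in B1 and B2. B was again above A in both libraries, and here B1 was the higher library of B, the reverse of *Ccnd2*. The mean of 41.6 ± 21.9 FPKM (SD, n = 2) was the highest of the D-type cyclins, and B was 2.19 times as high as A.

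Summed over the family, the D-type cyclins came to 50.4 FPKM in A against 113 FPKM in B. Within the family *Ccnd3* made up 51.0% ± 0.968, *Ccnd2* 33.2% ± 2.45 and *Ccnd1* 15.8% ± 3.42 of the summed FPKM (SD, n = 2). *Ccnd3* was the leading D-type cyclin in each library, with shares of 50.4% and 52.98% in A1 and A2, 57.4% in B1 and 43.2% in B2. The share of *Ccnd1* was 13.8% and 13.0% in the libraries of A and 17.1% and 19.4% in those of B, without overlap. The total of the family thus differed by 2.24-fold between the replicates while its order stayed *Ccnd3*, *Ccnd2*, *Ccnd1* in all 4 libraries.

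**Figure D2:**
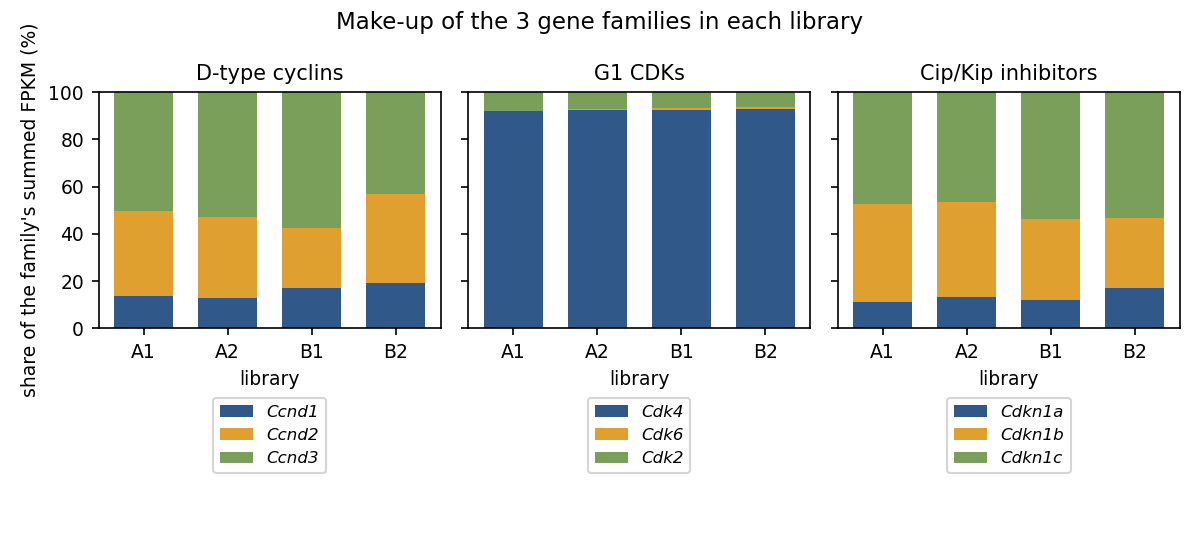
Share of each gene in the summed FPKM of its family (percent) in libraries A1, A2, B1 and B2, as stacked bars for D-type cyclins, G1 CDKs and Cip/Kip inhibitors. *Ccnd3* leads the D-type cyclins, *Cdk4* takes 92.0% to 92.8% of the kinase total, and *Cdkn1c* and *Cdkn1b* take most of the inhibitor total in every library.

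*Cdk4*, the main kinase partner of D-type cyclins in many tissues, is annotated at chr7:70345971-70352689, plus strand. It had 244 and 244 FPKM in libraries A1 and A2, against 284 and 270 FPKM in B1 and B2. The libraries of B were above those of A by a small margin, with a mean of 260.5 ± 23.3 FPKM (SD, n = 2) and a ratio of 1.13. The span given for *Cdk4* shares 3140 bp with *March9* on the opposite strand, which had a mean of 20.2 FPKM, and 9 bp with *Tspan31*. Whether reads were counted by strand is not given in the sources used here, so reads of these genes could not be told apart where they overlap.

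*Cdk6*, the paralogue of *Cdk4*, is annotated at chr4:27785641-27966398, minus strand, which is the longest span of the 10 genes. Its level was 0.512 and 0.436 FPKM in libraries A1 and A2, against 1.81 and 1.92 FPKM in B1 and B2. These are the lowest values of any of the 10 genes, they rest on a coverage of 9.91 to 44.1 reads per base, and B lay above A in both libraries with a ratio of means of 3.93. The mean was 1.17 ± 0.984 FPKM (SD, n = 2). *Cdk4* exceeded *Cdk6* by 476-fold and 560-fold in A1 and A2, against 157-fold and 141-fold in B1 and B2, so the distance between the paralogues itself differed between the replicates.

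Of the genes of the next step, *Ccne1* and *Cdk2* overlapped between the replicates. *Ccne1*, which encodes cyclin E1 and is annotated at chr1:94485830-94495067, minus strand, had 6.08 and 6.87 FPKM in libraries A1 and A2, against 7.89 and 6.75 FPKM in B1 and B2. The libraries of A and B overlapped, and the mean was 6.90 ± 0.595 FPKM (SD, n = 2). *Cdk2*, the kinase that cyclin E activates, is annotated at chr7:3124953-3132457, minus strand and had 20.8 and 19.3 FPKM in libraries A1 and A2, against 20.9 and 19.0 FPKM in B1 and B2. Its mean of 20.0 ± 0.0581 FPKM (SD, n = 2) had the smallest spread between replicates of the 10 genes, smaller than that between its technical libraries. The level of *Cdk2* was 2.92 ± 0.269 times that of *Ccne1* (SD, n = 2), and that of *Cdk4* was 13.1 ± 1.20 times that of *Cdk2*.

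*Ccne2*, the other cyclin E gene, was singled out after its values were seen. It had 9.72 and 11.5 FPKM in libraries A1 and A2, against 6.36 and 8.28 FPKM in B1 and B2, lower in B without overlap, with a difference of -0.48 on the log2(FPKM + 1) scale. The ratio of *Ccne2* to *Ccne1* was 1.60 and 1.67 in A1 and A2, against 0.806 and 1.23 in B1 and B2. *Ccne2* was therefore the higher cyclin E gene in 3 of 4 libraries, and the libraries of A and B did not overlap in this ratio.

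Among the Cip/Kip inhibitors *Cdkn1c* and *Cdkn1b* were the most abundant and *Cdkn1a* the least. *Cdkn1c*, an imprinted gene that encodes p57, is annotated at chr1:216661067-216663721, minus strand. It had 145 and 144 FPKM in libraries A1 and A2, against 215 and 201 FPKM in B1 and B2. The libraries of B were above those of A, the pairs of libraries lay close together, and the mean was 176 ± 44.5 FPKM (SD, n = 2) with a ratio of B to A of 1.44.

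*Cdkn1b*, which encodes p27, is annotated at chr4:168689163-168693964, plus strand. Its level was 127 and 125 FPKM in libraries A1 and A2, against 137 and 111 FPKM in B1 and B2. B1 was the highest and B2 the lowest library, so the replicates overlapped, and the mean was 125 ± 1.26 FPKM (SD, n = 2). *Cdkn1a*, which encodes p21, is annotated at chr20:6348422-6358864, plus strand and had 34.6 and 40.7 FPKM in libraries A1 and A2, against 47.0 and 64.9 FPKM in B1 and B2. B was above A in both libraries, although the libraries of B were 1.38-fold apart, and the mean was 46.8 ± 12.9 FPKM (SD, n = 2).

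The inhibitors summed to 308 FPKM in A against 388 FPKM in B. *Cdkn1c* took 50.2% ± 4.67, *Cdkn1b* 36.4% ± 6.30 and *Cdkn1a* 13.4% ± 1.63 of this sum (SD, n = 2). *Cdkn1b* took 41.4% and 40.3% in A1 and A2 and 34.4% and 29.5% in B1 and B2, without overlap. The summed inhibitors were 6.35 and 5.91 times as high as the summed D-type cyclins in A1 and A2 and 3.44 and 3.43 times in B1 and B2. *Cdk4* and *Cdk6* together were 5.06 and 4.66 times as high as the D-type cyclins in A1 and A2 and 2.46 and 2.48 times in B1 and B2. In these mRNA ratios the technical pairs lay close together and the replicates apart.

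The difference between replicates was then set beside that of all genes. It is given as log2(FPKM + 1) of replicate B minus replicate A, a scale that understates differences of low genes, and with 2 replicates of 1 condition no p-value was computed. The difference was 1.48 for *Ccnd1*, 1.10 for *Ccnd3*, 0.97 for *Ccnd2*, 0.96 for *Cdk6*, 0.56 for *Cdkn1a*, 0.52 for *Cdkn1c*, 0.18 for *Cdk4*, 0.15 for *Ccne1*, -0.01 for *Cdk2* and -0.02 for *Cdkn1b*. The median over the 10 genes was 0.54, and that over the 10481 genes whose mean reached 1 FPKM was -0.03. *Ccnd1* lay above 97.7%, *Ccnd3* above 95.7%, *Ccnd2* above 95.0% and *Cdk6* above 94.9% of these genes. The place of *Cdk6* is favoured by the minimum of 1 FPKM, which it reached only through replicate B. With libraries scaled by median ratios the differences of *Cdk2* and *Cdkn1b* turned to values of 0.01 and 0.00, and the other 8 kept their sign.

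A gene was counted as differing when its mean reached 1 FPKM, the absolute difference was 1 or more, and every library of one replicate exceeded those of the other. All 10 genes passed the minimum level, *Cdk6* only through replicate B, at 1.87 FPKM against 0.474 in A, so its place in the counts with B higher is favoured by this minimum. *Ccnd1* and *Ccnd3*, 2 of the 10, met the criteria with B higher, and 4.78% of all genes did. None of the 10 met them with A higher, beside 1.42% of all genes. Without regard to size, 7 of the 10 did not overlap between the replicates with B higher, beside 28.1% of all genes, and 0 of the 10 did so with A higher, beside 32%. At an absolute difference of at least 0.58, *Ccnd2* and *Cdk6* were counted as well, which made 4 of 10 beside 9.51% of all genes with B higher. A pseudocount of 0.1 gave the same 4 genes, beside 6.13%. In both counts *Cdk6* is the gene that passed through replicate B alone.

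*Ccnd3* and *Ccnd2* depended on which library stood for replicate B. With B1 alone the difference was 1.32 for *Ccnd3* and 0.72 for *Ccnd2*, and with B2 alone it was 0.84 and 1.18, so that *Ccnd3* met the criteria without B2 and *Ccnd2* without B1. *Ccnd1* met them either way, at 1.43 and 1.52. Smaller differences moved too, to 0.31 and 0.77 for *Cdkn1a*, 0.25 and 0.05 for *Ccne1*, 0.12 and -0.18 for *Cdkn1b*, and 0.06 and -0.07 for *Cdk2*, with B1 alone and B2 alone. The mesenchymal and meningeal markers moved in the same direction as the D-type cyclins, with a median difference of 2.17 and 6 of 7 meeting the criteria with B higher, beside 4.78% of all genes. The 6 progenitor markers had a median of -0.47, and 2 of them, *Fabp7* and *Hes5*, met the criteria with A higher, beside 1.42%. The part of these markers in the differences of the G1 genes was not tested.

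**Figure D3:**
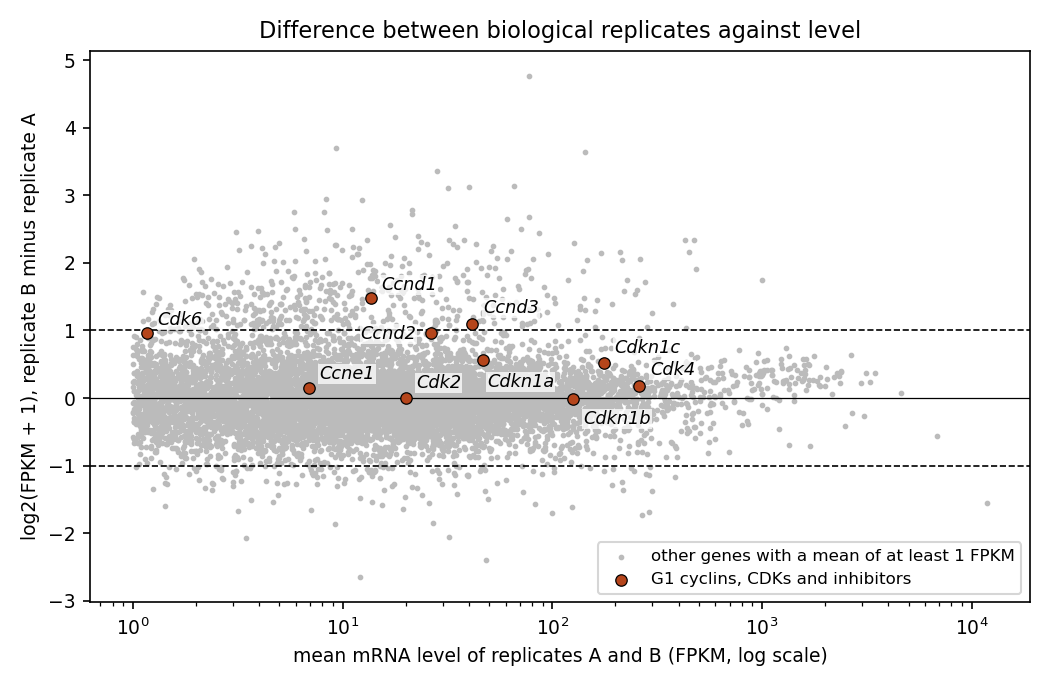
Difference between replicate B and replicate A on the log2(FPKM + 1) scale against mean FPKM (log axis), with other genes in grey and the 10 G1 genes in red. Dashed lines mark differences of 1 and -1, and only *Ccnd1* and *Ccnd3* of the 10 lie above the upper line.

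Other genes of the G1/S pathway were read from a list of 33, of which 27 were analysed here and 26 reached a mean of 1 FPKM. *Rb1*, which encodes the retinoblastoma protein that CDK4 and CDK6 phosphorylate, met the criteria with A higher, which made 1 of 26 beside 1.42% of all genes, and 0 of the 26 met them with B higher, beside 4.78%, although *Cdkn2b*, which encodes p15, did so without B2. It had 29.6 and 32.0 FPKM in libraries A1 and A2, against 13.2 and 13.9 FPKM in B1 and B2, a difference of -1.13. *Rb1* thus went against the D-type cyclins, with both libraries of A at more than 2 times the level of either library of B.

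The median difference over the 26 genes was -0.06, beside -0.03 over all genes, and 12 of them were higher in B and 14 in A by the mean. Of the 27 genes analysed, the 3 highest were *Skp1* and *Cul1*, subunits of the ubiquitin ligase that degrades p27, and *Tfdp1*, the dimer partner of E2F factors, at 461 ± 53.6, 65.7 ± 8.31 and 48.5 ± 5.88 FPKM (SD, n = 2). The 3 lowest of the 27 were *Ccna1*, a cyclin best known from the germline, which at 0.808 ± 0.250 did not reach 1 FPKM, the repressor gene *E2f7* at 1.14 ± 0.167 and *Cdkn2a*, which encodes p16 and p19ARF, at 1.35 ± 0.486 FPKM (SD, n = 2). Of the 10 genes examined, 9 had a higher level than these 3 lowest genes.

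**Figure D4:**
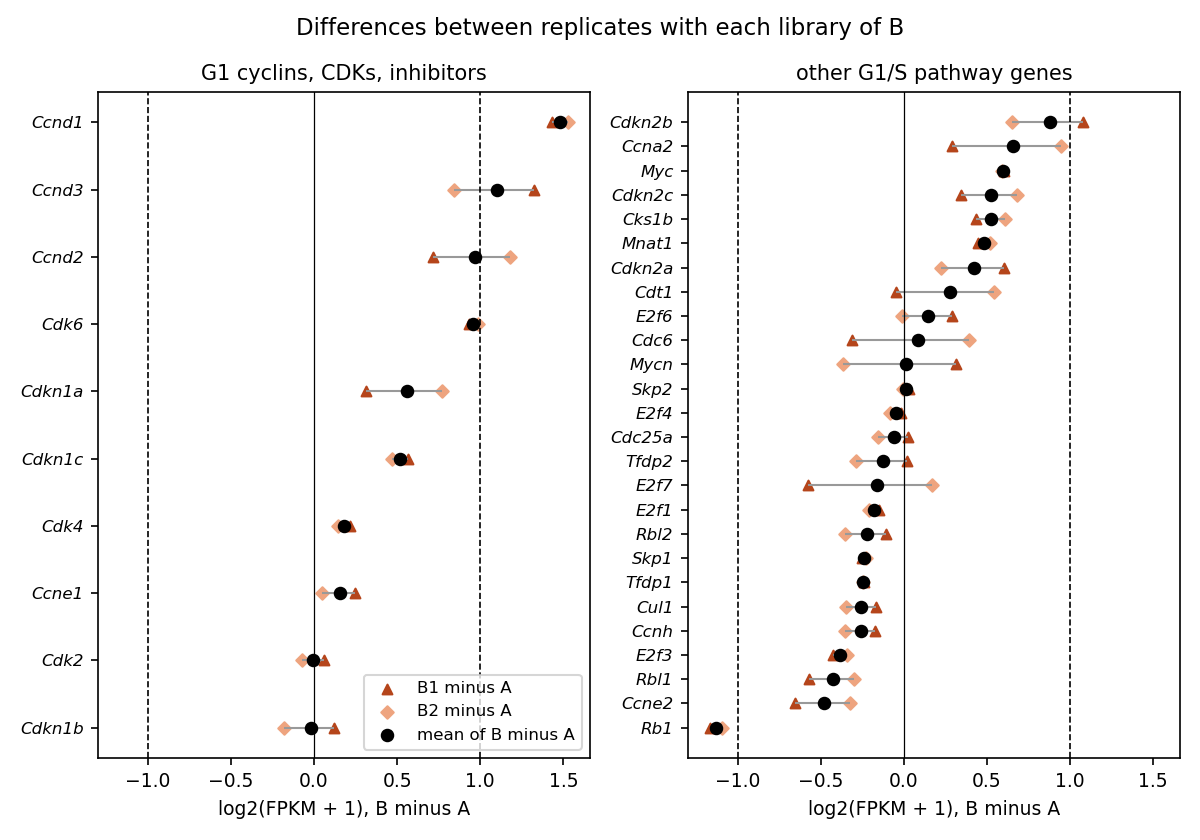
Difference between replicates on the log2(FPKM + 1) scale for the 10 G1 genes (left) and 26 other genes of the G1/S pathway (right), with replicate B taken as the mean of its libraries (black), as B1 alone (triangles) or as B2 alone (diamonds). *Ccnd1* lies above 1 and *Rb1* below -1 whichever library stands for B, while *Ccnd2* and *Ccnd3* lie on either side of 1.

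Genes of proliferating cells were read from a list of 13, among them *Mki67*, *Pcna* and the mitotic kinase gene *Cdk1*. By the mean, 12 of the 13 were higher in B, beside 46.9% of all genes. Of the 13, 0 met the criteria in either direction, beside 4.78% of all genes with B higher and 1.42% with A higher. Of the 12 higher in B, 11 had both libraries of B above both of A, beside 28.1% of all genes. The other way, 0 of the 13 lay without overlap, beside 32% of all genes. *Pcna*, the gene with the highest level of the list, and *Mki67* were the 2 that overlapped. The median difference of the list was 0.58, and 0.35 without B2. The list summed to 268.5 and 290.6 FPKM in libraries A1 and A2, against 290.8 and 394 FPKM in B1 and B2. *Pcna* made up much of this sum, at 129.3 and 144.2 FPKM in A1 and A2 and 105.2 and 148.2 FPKM in B1 and B2. Most proliferation genes thus lay on the same side as the D-type cyclins, and their part in the differences of the G1 genes was not tested.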

How the data were processed

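PolyA RNA-seq of 4 libraries was used, with 2 technical libraries for each of 2 biological replicates, as the sample labels give them. Per the labels and the methods of the study, reads were aligned to rn6 with STAR, and the tables have the layout of StringTie. FPKM and TPM were computed by the authors and used as deposited. The deposited coverage counts reads per base and depends on how deeply a library was sequenced. The methods name Rsubread and DESeq2 for FPKM, and tool versions are not given in the sources used here. Read counts were not used here, so precision is described by coverage and by the spread between libraries.

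FPKM was summed by gene name and averaged over the technical libraries of a replicate. Means and SDs were taken over the 2 replicates, for which the labels do not name separate litters. No test between groups was possible. The genes, lists, criteria and promoters were chosen with earlier results of these data known. Promoter letters were searched in 250 bases before the start in RefSeq promoters (GRCr8), and the 50 bases after it were not printed. By rule, other genes were named when they belonged to the pathway list and met the criteria for a difference or were among its 3 highest or 3 lowest, or when they had the profile most like one of the 10 genes. *Ccne2* and the single genes given from the marker and proliferation lists were picked after their values were seen. The result of 1 further gene list is not reported here. Alternatives were TPM, scaling, pseudocount, thresholds, and leaving out replicates or technical libraries. Python 3.11.15, pandas 2.3.3, numpy 2.4.6 and matplotlib 3.10.9 were used.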

Additional observations from a re-analysis of the deposited data

How the results depend on the processing

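No paired analysis was possible because all RNA-seq libraries belong to 1 condition. The levels of *Cdk4*, *Cdkn1c*, *Cdkn1b* and *Cdk6* kept their places under all alternatives computed. Genes among the 10 that met the criteria numbered 4 at a log2 difference of 0.58 and 4 with a pseudocount of 0.1, against 2, and stayed at 2 under the other settings, though without B1 these were *Ccnd1* and *Ccnd2*. Of the 26 other G1/S genes, 4 met the criteria at 0.58. Of these, 3 (*Ccna2*, *Cdkn2b* and *Myc*) were higher in B, beside 9.51% of all genes. The other, *Rb1*, was higher in A, beside 728 of 10481 genes. The other G1/S genes numbered 2 with a pseudocount of 0.1 and 2 without B2 (*Cdkn2b* in B and *Rb1* in A each time), against 1 (*Rb1*). All genes numbered 1725 of 10481 at 0.58 and 331 of 6636 with a minimum mean of 10 FPKM, against 650 of 10481. B was higher in 501 and A in 149 of these 650, beside 997 and 728 at 0.58 and 643 and 257 with a pseudocount of 0.1. They were 382 and 189 of 10413 genes without B2, and 668 and 222 of 10523 genes without B1. Without B2 the shares were 54.6% for *Ccnd3* and 30.2% for *Ccnd2*, and without B1, an alternative chosen after seeing the data, 47.5% and 36.2%. The cause was not tested. In the 19 values examined for a library standing apart from the other 3 there were 0. The difference between replicates could not be computed with 1 replicate left out.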

Other observations

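For each of the 10 genes, the gene with the most similar profile was taken as the one with the smallest root mean square difference of log2(FPKM + 1) over the 4 libraries, among genes whose mean reached 1 FPKM. *Cdkn1a* lay closest to *Cdk1*, the kinase gene of mitosis, at 0.037, with *Cdk1* at 34.7 and 38.9 FPKM in A1 and A2 and 48.1 and 65.6 FPKM in B1 and B2. *Ccnd2* lay closest to *Errfi1*, a feedback inhibitor of the EGF receptor, at 0.045, with 17.1, 17.3, 29.5 and 43.5 FPKM in A1, A2, B1 and B2. *Cdk4* lay closest to *Ywhaq* (0.066), *Cdk2* to *Trim26* (0.022), *Cdkn1b* to *Smarcb1* (0.056), *Cdk6* to *Cyp27a1* (0.065) and *Ccne1* to *Csrp2bp* (0.069). The nearest genes of *Ccnd1*, *Ccnd3* and *Cdkn1c* were farther, *Smim3* at 0.13, *Enpp2* at 0.14 and *Cct5* at 0.11. These are descriptions over 4 libraries of 2 replicates.

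The other marker lists gave these values. Of 5 neuronal markers whose mean reached 1 FPKM, 0 met the criteria, beside 4.78% of all genes with B higher and 1.42% with A higher, and the median difference was -0.52. Of the 5, 4 were lower in both libraries of B than in either of A, beside 32% of all genes. Of 4 astrocyte markers *S100b* met them with A higher (a difference of -1.12, and -0.92 without B2), while the other 3, *Gfap*, *Aqp4* and *Slc1a3*, were higher in B by the mean at 0.46, 0.18 and 0.07, and the median of the 4 was 0.12. Without B2 the values were -0.20 for *Gfap*, 0.27 for *Aqp4* and -0.09 for *Slc1a3*, with a median of -0.14. Of 4 oligodendrocyte lineage markers *Pdgfra*, which mesenchymal cells also express, met them with B higher. Among the 6 progenitor markers, *Fabp7* and *Hes5* met them with A higher.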
